A study of Mus musculus with 4 samples.

Results

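The genes described here were 38 cell cycle genes in mouse dorsal epidermis, 15 that peak in S phase and 23 that peak in G2 and mitosis (G2/M). They were chosen by gene symbol from a fixed list, and all 38 were found among the 32479 genes of the tables. They were followed in single cells as levels per cell class and as the share of cells per mouse that carried S or G2/M transcripts, in basal cells, in cells between the basal and the spinous state (transition cells), in hair follicle cells and in T cells. The study asked what ceramide synthase 4 (CerS4), an enzyme that makes ceramides, does in the epidermis. It profiled back skin epidermis of P19 female C57BL/6N mice with BD Rhapsody, a microwell method in which unique molecular identifiers (UMIs) mark single transcripts. All 4 mice carried the floxed CerS4 alleles (CerS4fl/fl). The 2 control mice had no Cre (CerS4fl/flK14Cre-), and the 2 CerS4epi-/- mice carried Cre under the keratin 14 promoter (CerS4fl/flK14Cre+). This promoter is active in basal keratinocytes, so their progeny in the epidermis and follicle carry the deletion, whereas T cells keep the intact floxed gene.

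In S phase a cell copies its DNA. The MCM helicase is loaded onto origins in G1, opened at the start of S phase and followed by polymerases that are held on DNA by the clamp Pcna. In G2 and mitosis cyclin A and cyclin B drive Cdk1, the spindle and kinetochores sort the chromosomes, and the anaphase-promoting complex ends mitosis by marking cyclins and other proteins for degradation. In the epidermis cell division takes place mainly in the basal layer, cells that leave it turn on Krt1 and Krt10, and at telogen the hair follicle rests.

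The promoters of both gene groups carry well-known elements, and 6 of them are shown because their genes had the highest levels in basal cells, 3 of each phase. Sequences run from 250 bases before to 50 bases after the transcription start, on the gene's strand, read from GRCm39 with GENCODE vM39 starts. Capitals mark matches on either strand to the cell cycle genes homology region (CHR, TTTGAA or TTTAAA), the CCAAT box bound by NF-Y (CCAAT) and the E2F site (TTTGGCGC, TTTCCCGC, TTTCGCGC or TTTGCCGC). Overlapping matches of 1 motif were counted once.
The S phase genes were Pcna at chr2:132095185-132095484 (minus strand), Mcm6 at chr1:128287403-128287702 (minus strand) and Rrm1 at chr7:102090640-102090939 (plus strand).
Pcna: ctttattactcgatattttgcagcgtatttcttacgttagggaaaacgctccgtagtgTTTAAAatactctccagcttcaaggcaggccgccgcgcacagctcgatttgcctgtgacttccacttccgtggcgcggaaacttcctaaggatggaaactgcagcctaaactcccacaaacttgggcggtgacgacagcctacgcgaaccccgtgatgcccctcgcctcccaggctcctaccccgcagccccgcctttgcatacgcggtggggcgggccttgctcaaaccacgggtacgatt
Mcm6: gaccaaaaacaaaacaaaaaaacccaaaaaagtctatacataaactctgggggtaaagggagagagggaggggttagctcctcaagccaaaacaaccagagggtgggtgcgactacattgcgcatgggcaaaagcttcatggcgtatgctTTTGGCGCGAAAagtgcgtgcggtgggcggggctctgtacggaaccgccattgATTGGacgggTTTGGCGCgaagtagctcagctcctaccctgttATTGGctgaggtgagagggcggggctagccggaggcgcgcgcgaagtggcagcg
Rrm1: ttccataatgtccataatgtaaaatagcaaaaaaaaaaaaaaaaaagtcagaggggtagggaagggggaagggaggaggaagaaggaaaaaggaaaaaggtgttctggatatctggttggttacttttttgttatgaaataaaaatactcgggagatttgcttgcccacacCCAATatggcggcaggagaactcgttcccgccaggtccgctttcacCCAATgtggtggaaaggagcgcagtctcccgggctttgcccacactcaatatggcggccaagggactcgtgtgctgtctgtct
The G2/M genes were Top2a at chr11:98914992-98915291 (minus strand), Ube2c at chr2:164611568-164611867 (plus strand) and Anln at chr9:22300452-22300751 (minus strand).
Top2a: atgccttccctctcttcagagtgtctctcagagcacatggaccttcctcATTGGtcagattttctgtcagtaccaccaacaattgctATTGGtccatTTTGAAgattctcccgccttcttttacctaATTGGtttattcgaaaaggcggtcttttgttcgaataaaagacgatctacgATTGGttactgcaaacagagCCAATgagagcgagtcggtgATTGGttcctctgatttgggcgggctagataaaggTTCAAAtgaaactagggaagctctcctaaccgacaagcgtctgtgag
Ube2c: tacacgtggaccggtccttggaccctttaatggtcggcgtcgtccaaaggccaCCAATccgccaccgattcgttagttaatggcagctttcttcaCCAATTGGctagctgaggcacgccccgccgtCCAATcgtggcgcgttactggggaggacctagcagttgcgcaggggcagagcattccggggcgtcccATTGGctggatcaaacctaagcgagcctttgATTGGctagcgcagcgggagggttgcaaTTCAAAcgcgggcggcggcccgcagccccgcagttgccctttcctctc
Anln: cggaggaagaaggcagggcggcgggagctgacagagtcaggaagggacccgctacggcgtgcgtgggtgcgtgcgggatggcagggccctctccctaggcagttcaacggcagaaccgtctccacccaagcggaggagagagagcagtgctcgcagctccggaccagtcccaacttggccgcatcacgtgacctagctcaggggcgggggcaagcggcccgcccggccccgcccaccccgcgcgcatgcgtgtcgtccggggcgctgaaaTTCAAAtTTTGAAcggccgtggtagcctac

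A CHR match was found in 17 of the 23 G2/M promoters (73.9%) and in 5 of the 15 S promoters (33.3%), against 27.0% of all 21751 promoters searched. Top2a and Anln had 2 CHR matches each, and Ube2c had 1. An E2F match was found in 6 of 15 S promoters (40.0%) and in 1 of 23 G2/M promoters (4.35%), against 2.82% of all promoters. Mcm6 had 2 E2F matches, as did Mcm3 and Mcm4. A CCAAT box was found in 11 of 15 S promoters (73.3%) and 17 of 23 G2/M promoters (73.9%), against 39.9% of all. Top2a held 6 CCAAT boxes and Ube2c 5, while Pcna and Anln held none. These are matches of letters in 1 window per gene, and factor binding was not measured.

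The tables held 39231945 to 53106317 estimated counts per mouse, and 7567 to 9086 barcodes per mouse had 1200 counts or more and a mitochondrial share of 20% or less. The median mitochondrial share was 8.56% to 8.66% in control and 9.68% to 9.94% in CerS4epi-/- mice. No barcode was shared between mice of the same genotype, while chance would give 77.1 and 87.1, and 64 to 102 were shared between mice of different genotype, and the labels do not say which mice were run together, so run and genotype cannot be told apart. The 328 barcodes found in more than 1 library were kept as separate cells. The deleted gene was checked in classes that express it, in counts per 1000000 counts of the class (CPM). Cers4 had 2876 and 3968 CPM in control and 293 and 438 CPM in CerS4epi-/- sebaceous gland cells (11, 2, 26 and 32 cells), and 28.4 and 34.4 against 9.8 and 8.0 CPM in inner bulge cells. Neither overlapped, and the direction goes with the labels. In T cells it had 115, 76.1, 102 and 120 CPM, and in basal and transition cells of either genotype it was at 0 to 1.8 CPM, too low for a check there. Barcodes of 10 to 100 counts, which hold free RNA, carried the S members at 93.5% to 113% and the G2/M members at 99.4% to 107% of their level over all cells. Clustering was run without the cell cycle genes. It gave 9353 basal, 2388 transition, 4880 follicle and 457 T cells. The follicle class held upper follicle and inner bulge clusters, and no cluster could be named outer bulge. A cluster of 3428 cells led by Aldh3a1 and Sostdc1 stayed unnamed.

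To compare cells of unequal depth, each cell was thinned to 1200 UMIs and called S or G2/M when at least 3 of them came from that list and it had the more UMIs, ties going to G2/M. The calls were compared with genes they did not use. In basal cells called G2/M, 113 other G2/M genes together had 33.9 to 39.2 UMIs per cell (means of the 4 mice), against 4.67 to 5.05 in uncalled basal cells. In basal cells called S, 64 other S phase genes had 4.59 to 5.21 UMIs, against 1.02 to 1.09 in uncalled ones. Basal cells called G2/M had 3.81 to 4.48 UMIs of these S phase genes, and those called S had 9.61 to 10.8 of the other G2/M genes. The other S phase genes thus set called from uncalled cells apart more than S from G2/M calls. Cells called G2/M were also larger libraries, with median counts of 4398 to 6144.5 in basal cells against 2630 to 3404 in uncalled ones. Of the basal UMIs of single members, 53.9% of Pcna, 79.9% of Rrm2 and 88.9% of Cenpa lay in called cells.

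Basal cells held most of the cycling cells. Their S share was 10.3% and 7.11% in the control mice and 8.79% and 9.17% in the CerS4epi-/- mice, out of 2646, 2855, 2128 and 1713 thinned cells. Their G2/M share was 8.73% and 9.46% in control and 8.83% and 6.71% in CerS4epi-/- mice. The genotypes overlapped in both phases. The S share averaged 8.71% ± 2.27 (SD, n = 2) in control and 8.98% ± 0.27 (SD, n = 2) in CerS4epi-/- mice (two-sided exact permutation p = 1). The G2/M share averaged 9.09% ± 0.51 and 7.77% ± 1.5 (SD, n = 2 each, exact permutation p = 0.667). With 2 mice against 2 this test cannot give a p below 0.333. Without thinning the S shares were 23.7%, 19.8%, 26.2% and 23.4% and the G2/M shares 10.4%, 10.5%, 10.4% and 8.0% in the same order of mice. There were 1.18 and 0.752 S cells per G2/M cell in control and 0.995 and 1.37 in CerS4epi-/- basal cells.

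Transition cells had lower shares than basal cells in all 4 mice. Their S share was 2.80% and 2.09% in control and 1.88% and 1.03% in CerS4epi-/- mice, and their G2/M share was 2.24% and 2.23% against 0.938% and 1.03%. These shares came from 12, 16, 6 and 5 G2/M cells of 536, 719, 640 and 487 cells. Both CerS4epi-/- mice lay below both controls in either phase, with means of 2.23% ± 0.0095 and 0.982% ± 0.063 (SD, n = 2 each) for G2/M, a log2 ratio of -1.18 (exact permutation p = 0.333, the smallest possible). The exact 95% binomial intervals of the G2/M shares overlapped between mice, from 1.16% to 3.88% and 1.28% to 3.59% in control and from 0.345% to 2.03% and 0.334% to 2.38% in CerS4epi-/- mice. These intervals cover counting error only. The S difference turned with the random draw of the thinning, from a log2 ratio of -0.751 to 0.872 with another seed, and is not read further. Without thinning the S shares were 15.1%, 15.7%, 18.8% and 14.99% and the G2/M shares 4.48%, 3.34%, 1.25% and 1.85%. When transition cells were instead taken as cells with at least 10 UMIs of Krt5 and Krt14 and at least 10 of Krt1 and Krt10, a gate added after the data were seen, the G2/M share was 1.84% and 0.935% in 272 and 321 control cells and 1.88% and 1.09% in 320 and 183 CerS4epi-/- cells, and the genotypes overlapped.

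Follicle cells held few cycling cells, as far as these counts could show. Their S share was 0.932% and 0.151% in control and 0.924% and 0.993% in CerS4epi-/- mice, and their G2/M share was 0.466%, 0.302%, 0.404% and 0.558% in the same order. These shares came from 8, 1, 16 and 16 S cells and 4, 2, 7 and 9 G2/M cells. Granular cells, which have left the cycle, gave S shares of 0.959%, 0.506%, 0.146% and 0.355% and G2/M shares of 0.548%, 0, 0 and 0.177% in the same order. The granular S shares came from 7, 5, 1 and 2 cells. The granular S calls rested mainly on Rrm2, without which they were 0.137%, 0, 0 and 0. The follicle S shares overlapped the granular ones with Rrm2 counted, with both CerS4epi-/- mice above their granular values. The follicle G2/M shares overlapped the granular ones. The 0 of 988 and 0 of 684 granular cells allow shares of up to 0.304% and 0.439%. Median counts per cell were 2264 to 3242 in the follicle and 10054.5 to 12684.5 in granular cells before thinning. Without thinning the S shares were 5.48%, 5.58%, 10.05% and 9.06% in the follicle and 32.9%, 30.2%, 26.6% and 25.2% in granular cells.

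T cells had a high S share beside few G2/M cells, and their G2/M share overlapped that of transition cells. The S share was 12.5% and 9.09% in control and 18.7% and 15.4% in CerS4epi-/- mice, from 13, 6, 26 and 22 cells. The G2/M share was 0, 1.52%, 1.44% and 2.80%, from 0, 1, 2 and 4 of 104, 66, 139 and 143 cells, and the 0 of 104 cells allow up to 2.88%. Both CerS4epi-/- mice had a higher S share than both controls (exact permutation p = 0.333), but most of the S calls needed Pcna. Pcna gave 57.1% of the S list UMIs of T cells, and without it the S share was 1.92%, 1.52%, 2.16% and 0.699%. Without thinning, and with Pcna, it was 23.1%, 24.2%, 33.8% and 34.97%. Leaving out any other S member kept the thinned share at 7.58% or more in each mouse. In the same order of mice, the cells called S had 1.92, 0.5, 2.5 and 1.55 UMIs of the 64 other S phase genes. Uncalled T cells had 1.01, 1.15, 1.46 and 1.13. The called cells were higher in each mouse but control 2, which had 6 of them. The ranges over mice overlapped, unlike those of basal cells.

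**Figure D1:**
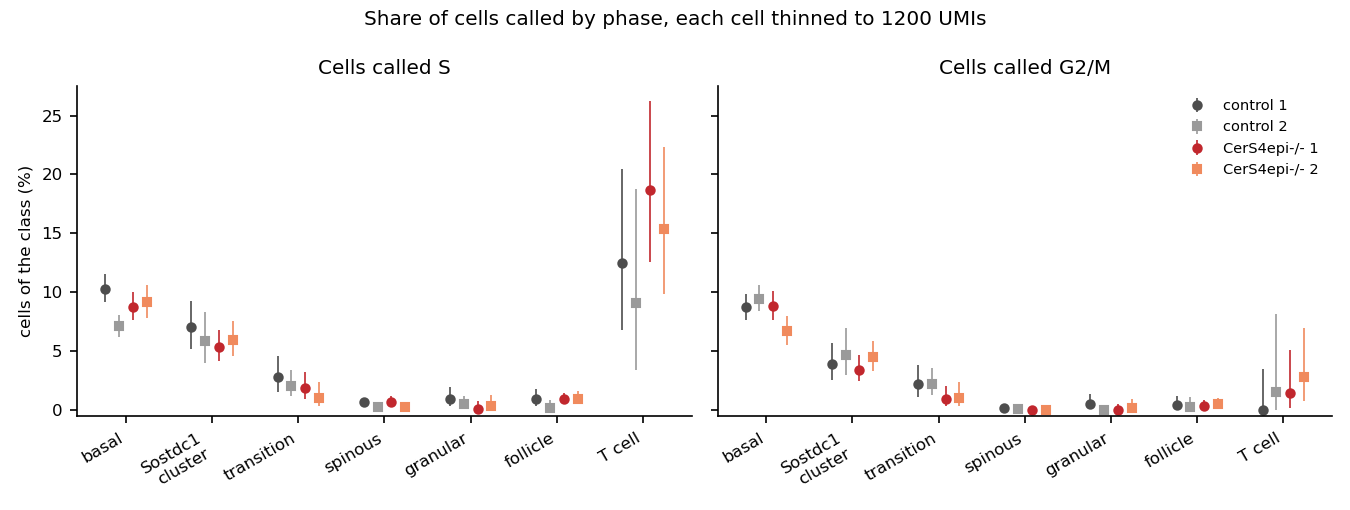
Share of cells called S (left) and G2/M (right), in percent of the cells of a class thinned to 1200 UMIs, by class and mouse, with exact 95% binomial intervals. Basal cells lie at 7.11% to 10.3% for S and 6.71% to 9.46% for G2/M, and T cells have S shares of 9.09% to 18.7% beside G2/M shares of 0 to 2.80%.

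Summed over the list, the level of the 15 S members was highest in T cells and basal cells among the 4 classes. In CPM of the class it was 998, 847, 965 and 885 in basal cells (control 1, control 2, CerS4epi-/- 1 and CerS4epi-/- 2, the order used from here on). It was 937, 829, 1133 and 1001 in T cells, 419, 396, 429 and 331 in transition cells and 263, 264, 237 and 244 in the follicle. The basal and T cell levels overlapped, and without Pcna the S sum was 672, 568, 673 and 611 in basal cells and 477, 396, 502 and 412 in T cells, which no longer overlapped. The G2/M sum fell more steeply from class to class. It was 1665, 1613, 1438 and 1282 in basal cells, 289, 390, 281 and 551 in T cells, 393, 327, 185 and 121 in transition cells, and 113, 111, 101 and 88.7 in the follicle. T cells and transition cells overlapped, and each other neighbouring pair in this order was separate. Levels of classes are compared as a description, without a test, since the clusters came from the same cells.

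**Figure D2:**
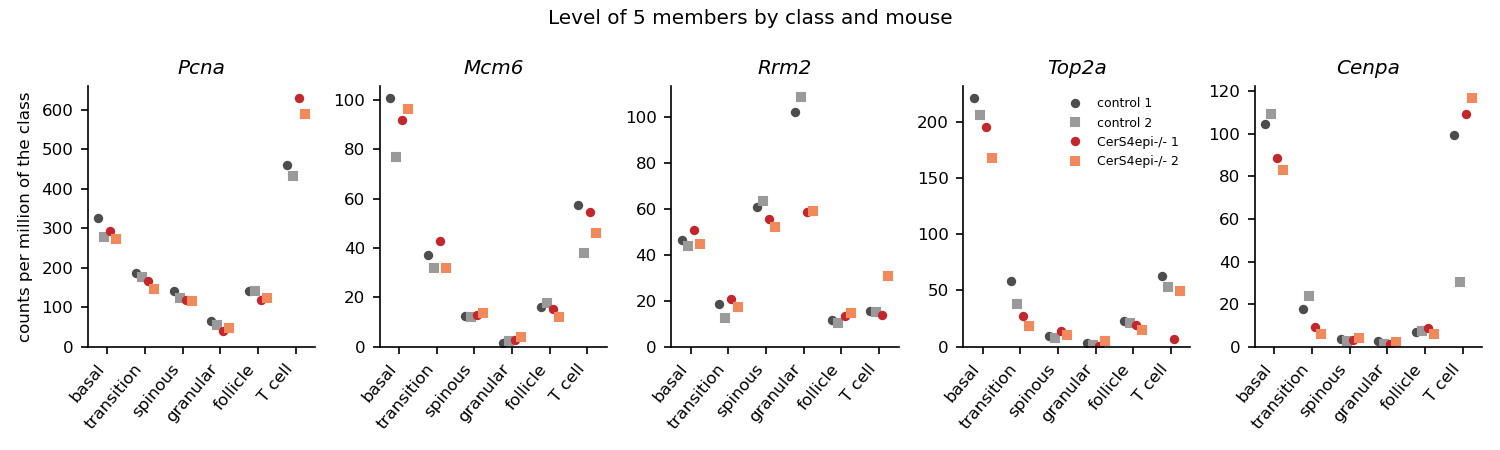
Level of Pcna, Mcm6, Rrm2, Top2a and Cenpa in CPM of the class, by class and mouse, 1 panel per gene on axes that start at 0. Mcm6 and Top2a are highest in basal cells, Pcna in T cells (434 to 631 CPM) and Rrm2 in granular cells (58.6 to 108 CPM).

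Among the S members, the clamp Pcna did not follow the other replication genes. Its level was 460, 434, 631 and 590 CPM in T cells, 446, 332, 375 and 469 CPM in Langerhans cells, 326, 279, 292 and 274 CPM in basal cells and 187, 177, 168 and 146 CPM in transition cells. T cells and Langerhans cells overlapped, while T cells lay above basal cells in every mouse. Mcm6, a helicase subunit, was instead highest in basal cells, at 101, 76.7, 92.0 and 96.3 CPM, against 57.5, 38, 54.6 and 46.1 CPM in T cells and 37.0, 32.0, 42.9 and 32.0 CPM in transition cells. Rrm1, the large subunit of ribonucleotide reductase, which makes deoxynucleotides, had 80.7, 71.4, 96.6 and 78.6 CPM in basal cells and 110, 83.7, 147 and 111 CPM in T cells. Slbp, which binds the stem-loop of histone mRNA, had 115, 91.3, 116 and 114 CPM in T cells, above the 39.6 to 43.8 CPM of basal cells. In T cells Pcna and Slbp thus lay above every basal value, Rrm1 overlapped the basal values, and the helicase genes Mcm2 to Mcm6 lay below them.

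Rrm2, the small subunit of ribonucleotide reductase, showed another order. It was highest in granular cells at 102, 108, 58.6 and 58.9 CPM, followed by spinous cells at 60.5, 63.4, 55.3 and 51.9 CPM and basal cells at 46.4, 43.6, 50.7 and 44.8 CPM. Granular and spinous cells overlapped, spinous and basal cells did not. The level was lower in transition cells, at 18.7, 12.3, 20.9 and 17.2 CPM, than in the classes on either side. In granular cells Rrm2 made up 41.4% of the S list UMIs. Without it, 0.137% of granular cells of control 1 and none of the other mice were called S. Mcm6 was at 1.6 to 3.8 CPM in granular cells.

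The G2/M members were led in basal cells by Top2a, the topoisomerase that untangles sister chromatids, at 221, 206, 195 and 168 CPM. It had 58.5, 37.9, 27.3 and 18.2 CPM in transition cells and 22.9, 20.8, 19.1 and 15.3 CPM in the follicle. Ube2c, the ubiquitin-conjugating enzyme of the anaphase-promoting complex, had 157, 140, 115 and 121 CPM in basal cells, and Anln, the anillin scaffold of the cleavage furrow, had 123, 111, 99.0 and 90.8 CPM. For these 3 genes both CerS4epi-/- mice lay below both controls in basal cells. Anln overlaps another annotated gene on its strand, so its reads may not all be its own. In T cells the leading member was Cenpa, the histone H3 variant of centromeres, at 99.3, 30.4, 109 and 117 CPM, or 32.6% of the G2/M list UMIs, followed by the central spindle kinesin Kif23 at 26.1, 68.5, 58.0 and 55.3 CPM. In these cells 35.6% of the Cenpa UMIs lay in cells called S or G2/M, against 88.9% in basal cells. Mki67, the Ki-67 gene, was at 15.7, 15.2, 17.1 and 52.2 CPM in T cells, below its 85.0 to 108 CPM in basal cells.

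Differences between genotypes were tested with edgeR's quasi-likelihood test on counts summed per mouse and class, with Benjamini-Hochberg adjustment over all genes tested in the class and a threshold of 0.05. In basal cells 12418 genes were tested, of which 3.47% were called, 2.21% higher and 1.26% lower in CerS4epi-/- mice. None of the 15 S members and none of the 23 G2/M members passed. At an unadjusted p under 0.05 there was 1 S member, Rrm1, which was higher, against 8.60% of all genes. Its level of 80.7 and 71.4 CPM in control and 96.6 and 78.6 CPM in CerS4epi-/- mice overlapped (log2 fold change 0.26, SE 0.12, edgeR adjusted p = 0.285). No S member separated the genotypes, while 18.0% of all genes with at least 20 counts were higher in both CerS4epi-/- mice than in both controls and 31.4% lower, and the median log2 fold change of the 15 was 0.04. Among the helicase and the factors that load it, the fitted log2 differences were 0.04 for Mcm4, 0.14 for Mcm6, 0.02 for Cdc6 and 0.04 for Cdt1.

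The basal G2/M members lay lower in CerS4epi-/- mice by small amounts that did not pass the adjusted test. At an unadjusted p under 0.05, 11 of 23 were lower and 0 higher, against 8.54% of all genes tested that were lower. Of the 23, 22 had a negative log2 fold change, and their median was -0.24, against 0.00 over all genes. In 18 of 23 both CerS4epi-/- mice lay below both controls, which was so for 31.4% of all genes with at least 20 counts. The checkpoint kinase gene Bub1b was the exception, with 12.1 and 12.6 CPM in control and 13 and 15.5 CPM in CerS4epi-/- mice. The largest difference was that of Cenpf, a kinetochore protein, with 85.5 and 87.7 CPM against 67.2 and 62.7 CPM, without overlap (log2 fold change -0.36, SE 0.09, edgeR adjusted p = 0.0689). Mki67 was level in 3 mice and lower in the fourth, at 105, 99.9, 108 and 85.0 CPM (log2 fold change -0.03, SE 0.12). The number of G2/M members that passed changed with the mice kept and with the cells taken as basal. With each mouse left out in turn, the log2 fold change ran from -0.42 to -0.31 for Cenpf and from 0.10 to 0.40 for the S member Rrm1. With the Sostdc1 cluster added, an alternative chosen after the data were seen, 10 G2/M members passed, all lower, where 3.5% of all genes were called lower. In the order of mice used above, that cluster held 25, 23, 41 and 49 cells called G2/M among 644, 495, 1195 and 1094 cells. The basal class held 231, 270, 188 and 115 among 2648, 2857, 2130 and 1718 cells. The cluster thus added more cells in CerS4epi-/- mice, and the part of this mix in the 10 calls was not tested.

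In transition cells 11 of the G2/M members fell in CerS4epi-/- mice, and no S member passed the test. Of 10382 genes tested, 3.73% were called, 2.27% higher and 1.45% lower. Of the 19 G2/M members that passed the filter on low counts, 11 were lower and 0 higher, with a median log2 fold change of -1.14 against 0.00 over all genes, and at an unadjusted p under 0.05 it was 16, all lower, against 7.65% of all genes that were lower and 7.96% that were higher. Of the 14 S members tested, 0 passed at either threshold and the median was -0.01. Without control mouse 1 the count of G2/M members was 7, and without CerS4epi-/- mouse 1, 2 S members passed, both lower. The 4 G2/M members not tested were Aurka, Bub1, Bub1b and Plk1, and of the S members Cdc6 was not tested. All lay at or under 5.02 CPM in each mouse.

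Cenpf fell most. It had 16.4 and 21.2 CPM in control and 3.2 and 4.9 CPM in CerS4epi-/- mice, from 36, 61, 10 and 10 counts (log2 fold change -2.23, SE 0.33, edgeR adjusted p = 0.000521). Of the cyclins, Ccna2, which acts from S phase into mitosis, had 32.4, 22.3, 11.2 and 6.9 CPM (-1.46, SE 0.27, adjusted p = 0.00397). Ccnb1, the mitotic cyclin B1, had 11.4, 16.0, 4.8 and 3.9 CPM (-1.59, SE 0.34, adjusted p = 0.0104). Their kinase Cdk1 had 26.0, 23.3, 13.2 and 9.8 CPM (-1.01, SE 0.23, adjusted p = 0.0168). In each of these 4 genes both CerS4epi-/- mice were below both controls. Cenpf lies at chr1:189372752-189420315 (minus strand) and Ccna2 at chr3:36619014-36626299 (minus strand) in GRCm39.

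Of the genes of chromosome structure, Top2a had 58.5, 37.9, 27.3 and 18.2 CPM in transition cells (log2 fold change -0.97, SE 0.22, edgeR adjusted p = 0.0152), and Cenpa had 17.8, 23.7, 9.3 and 5.9 CPM (-1.36, SE 0.28, adjusted p = 0.00807). Of the genes of mitotic exit and division, Ube2c had 26.0, 34.4, 13.5 and 10.3 CPM (-1.28, SE 0.23, adjusted p = 0.00294), and Anln had 27.9, 24, 13.5 and 5.9 CPM (-1.27, SE 0.28, adjusted p = 0.0123). Again no CerS4epi-/- mouse reached a control. The other 3 that passed were Ccnb2, cyclin B2, the spindle-associated Hmmr, and Birc5, survivin of the chromosomal passenger complex, with log2 fold changes of -1.55, -1.53 and -1.06. Summed over the 23, the counts were 861 and 939 in control and 575 and 245 in CerS4epi-/- mice.

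By contrast the S members of transition cells overlapped between genotypes in 12 of 15 cases, with 2 lower and 1 higher in both CerS4epi-/- mice, against 27.5% and 18.4% of all genes. Of the 20 G2/M members with at least 20 counts, 18 were lower in this way. Pcna had 187, 177, 168 and 146 CPM (log2 fold change -0.16, SE 0.10), Mcm6 had 37.0, 32.0, 42.9 and 32.0 CPM (0.20, SE 0.18), and Mcm4, a further helicase subunit, had 29.7, 31.0, 33.4 and 27.0 CPM (0.06, SE 0.18). None of these passed at an unadjusted p under 0.05. The largest fitted difference was that of Uhrf1, which reads hemimethylated DNA behind the fork, at 11.4, 9.7, 10.3 and 2.9 CPM (-0.49, SE 0.39, edgeR adjusted p = 0.621), and it was set by CerS4epi-/- mouse 2, since without that mouse the log2 fold change was 0.01.

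**Figure D3:**
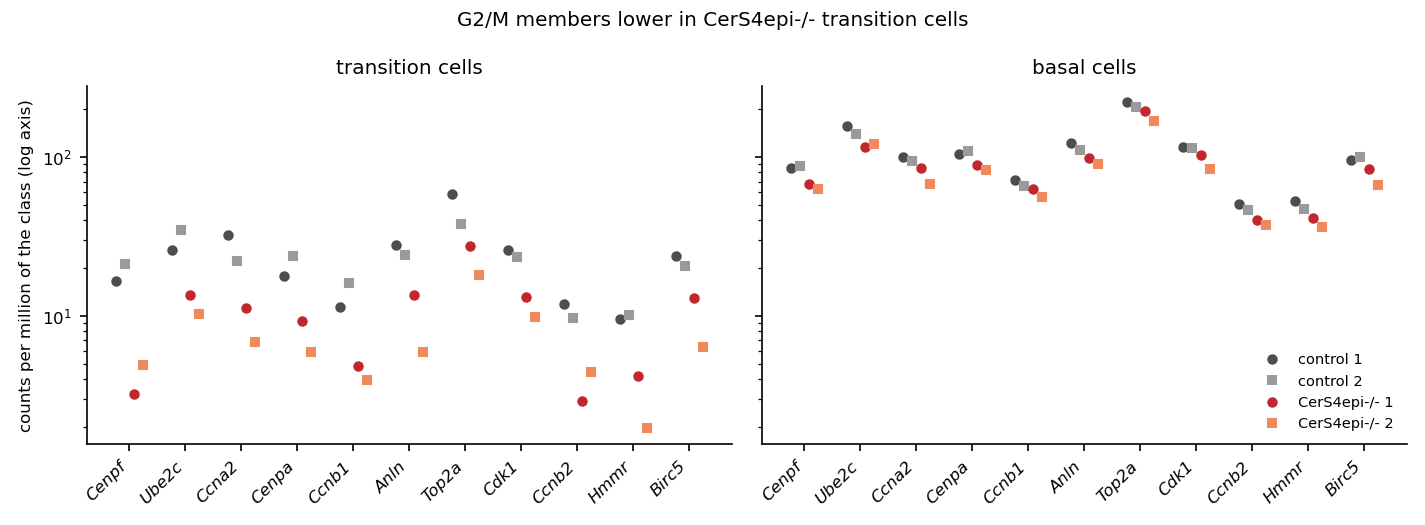
CPM of the G2/M members that passed the test in transition cells, by mouse, in transition cells (left) and basal cells (right) on a shared log axis. In transition cells the CerS4epi-/- points lie below both controls for each gene, as for Cenpf at 3.2 and 4.9 CPM against 16.4 and 21.2 CPM.

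For 7 G2/M members the fall in transition cells was larger than the difference in basal cells. In a fit of both classes, the genotype difference was tested for a difference between transition and basal cells in 11856 genes, of which 0.278% were called lower and 0.16% higher. Of the G2/M members 7 of 23 were called, all lower. They were Cenpf (difference of log2 fold changes -1.90, SE 0.32, edgeR adjusted p = 0.000752), Ccna2 (-1.20), Ube2c (-1.02), Top2a (-0.80), Ccnb1 (-1.47), Anln (-1.03) and Cenpa (-1.11), with adjusted p from 0.000752 to 0.0362. Of the 15 S members 0 were called, and at an unadjusted p under 0.05 it was 1, lower, against 4.23% of all genes.

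The result in transition cells depended on how these cells were delimited. With cells gated on keratin UMIs, as above, 0 of 12 G2/M members tested passed, and their median log2 fold change was -0.24, where 1.48% of 8913 genes were called, 0.482% lower. With the cell cycle genes left in the clustering 0 of 9 passed. That clustering placed cells by the same genes that were then counted, so its count is not a separate check. In it 960 cells led by Top2a and Ube2c formed a cluster of their own that was named basal. With DESeq2 in place of edgeR 2 of 19 passed in the main transition class. Other values moved in the same cells. Krt10 was at 11331, 10385, 8671 and 6568 CPM and Krt5 at 7227, 6596, 8504 and 7948 CPM in transition cells, and a list of genes induced by tissue dissociation summed to 14734, 13627, 18896 and 21289 CPM in transition and 17747, 17279, 20706 and 23684 CPM in basal cells. Markers of other classes moved as well. In transition cells the 10 upper follicle markers summed to 365, 348, 560 and 600 CPM, the 11 outer bulge markers to 82.8, 69.3, 163 and 133 CPM, the 10 Langerhans cell markers to 111, 111, 155 and 147 CPM and the 12 granular markers to 543, 586, 344 and 445 CPM. In basal cells the upper follicle markers summed to 377, 362, 552 and 688 CPM, the outer bulge markers to 96.4, 74.4, 240 and 183 CPM and the 11 T cell markers to 131, 115, 235 and 171 CPM. In each of these the genotypes were separate. The part of these values in the results of either class was not tested. Cells called G2/M in the transition class had 11.3 to 20 UMIs of Krt1 and Krt10 and 9.88 to 17.5 of Krt5 and Krt14 (means of the 4 mice), near the 10.9 to 16.6 and 13.3 to 16.5 of uncalled transition cells. Their median counts were higher, at 5483 to 8749.5 against 3339.5 to 4036 in uncalled ones. Doublets were taken as still present, and their part in these calls was not tested.

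**Figure D4:**
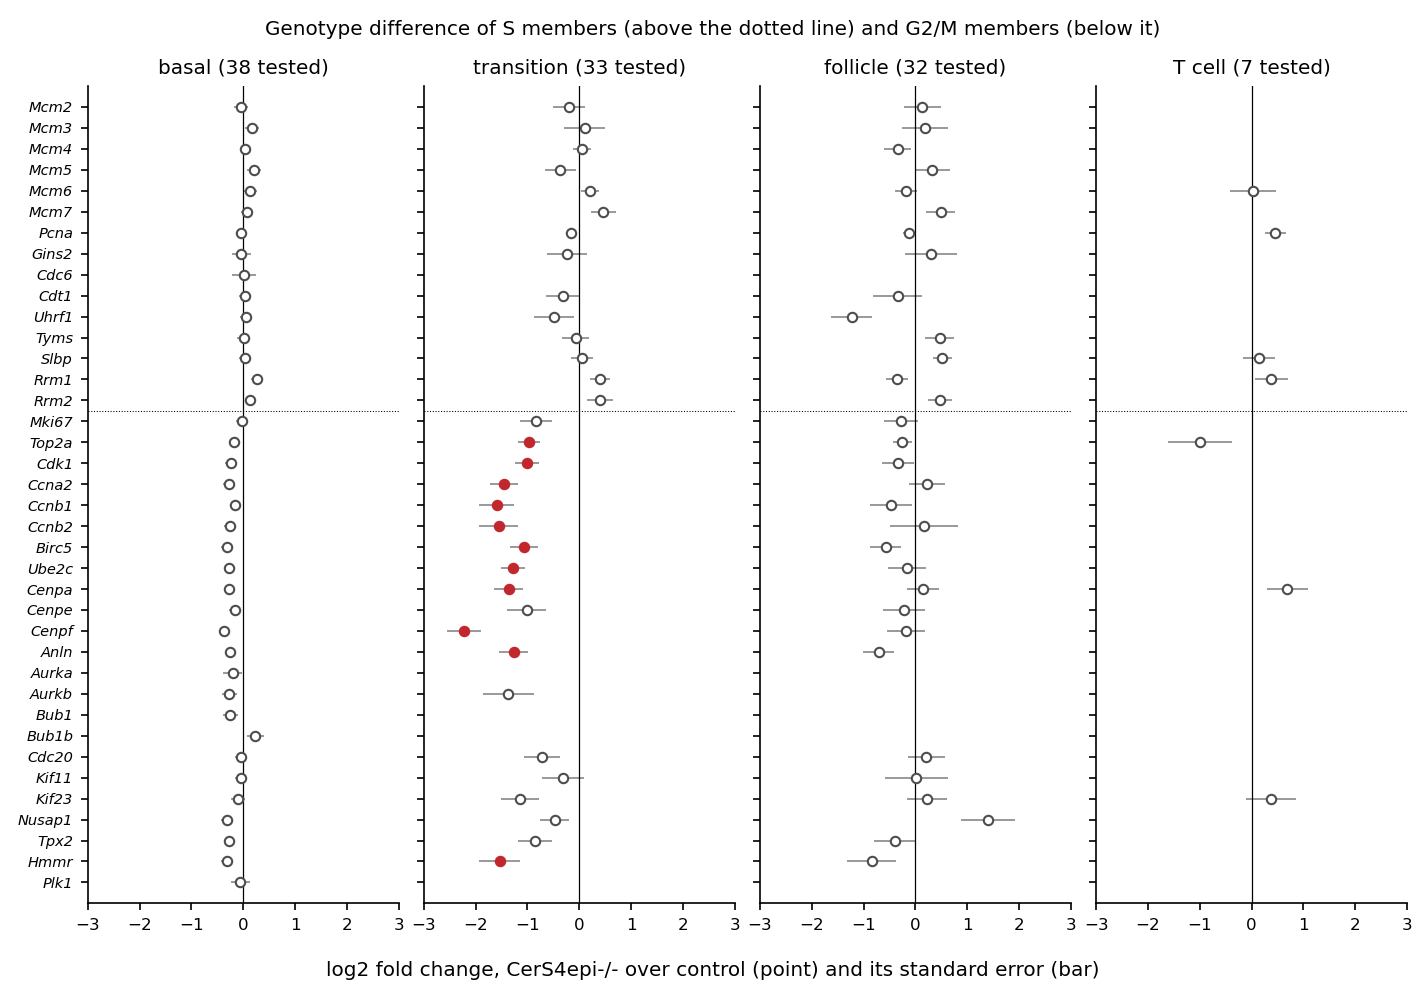
Fitted log2 fold change (CerS4epi-/- over control, edgeR) of each S member (above the dotted line) and G2/M member (below it) tested in each class, with its standard error as a bar. Filled points passed an adjusted p of 0.05. In transition cells the 19 G2/M members all lie below 0, with a median of -1.14, while the 14 S members spread around 0.

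In the follicle no member passed. Of 11550 genes tested, 7.96% were higher and 5.32% lower in CerS4epi-/- mice, and 0 of 14 S and 0 of 18 G2/M members were among them. At an unadjusted p under 0.05 there were 1 higher and 1 lower member of each list, against 15% and 12.6% of all genes. Uhrf1 had 4.6 and 5.3 CPM in control and 1.7 and 2.2 CPM in CerS4epi-/- mice (log2 fold change -1.23, SE 0.39, edgeR adjusted p = 0.0644). Nusap1, a spindle microtubule binder, had 2.3, 3.6, 4.4 and 9.6 CPM (1.40, SE 0.52, adjusted p = 0.105), and CerS4epi-/- mouse 2 was the highest. Uhrf1 and Nusap1 were low and separated the genotypes. The S members of highest level were Pcna at 142, 141, 118 and 124 CPM, Slbp at 19.5, 15, 24 and 22.6 CPM and Mcm4 at 13.4, 24.6, 13.3 and 14.1 CPM. The G2/M members of highest level were Top2a at 22.9, 20.8, 19.1 and 15.3 CPM, Cenpa at 6.9, 7.2, 8.6 and 5.9 CPM and Ube2c at 8.8, 6.8, 8.5 and 4.5 CPM. Cenpa, Ube2c and Mcm4 overlapped between genotypes. Cdc6, Aurka, Aurkb, Bub1, Bub1b and Plk1 were not tested, at 0 to 2.9 CPM in each mouse. Against basal cells, Nusap1 was the only member called of the 23 G2/M and 15 S members (difference of log2 fold changes 1.70, SE 0.48, adjusted p = 0.0351), where 3.42% of 13082 genes were called higher and 2.84% lower. Without CerS4epi-/- mouse 1, 1 G2/M member passed in the follicle fit, higher.

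In T cells 4491 genes were tested and 0.0445% were called, 1 in each direction (0.0223%). The members that passed the filter on low counts were 4 of 15 S (Pcna, Rrm1, Slbp and Mcm6) and 3 of 23 G2/M (Cenpa, Kif23 and Top2a), and 0 were called. Pcna was higher in both CerS4epi-/- mice, at 631 and 590 CPM against 460 and 434 CPM, but did not pass (log2 fold change 0.45, SE 0.20, edgeR adjusted p = 0.778). It was the 1 member at an unadjusted p under 0.05, where 3.61% of all genes were higher and 2.78% lower. Top2a had 62.7, 53.2, 6.8 and 49.1 CPM (-1.0, SE 0.62, adjusted p = 0.85), a value set by CerS4epi-/- mouse 1, without which it was -0.22. The class held 66 to 146 cells per mouse. No member differed between T cells and basal cells in its genotype difference, where 0.122% of 12304 genes did.

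Granular cells were fitted after their Rrm2 levels had been seen. Of 11094 genes tested, 8.50% were higher and 5.59% lower in CerS4epi-/- mice. Rrm2 fell from 102 and 108 CPM to 58.6 and 58.9 CPM (log2 fold change -0.74, SE 0.09, edgeR adjusted p = 0.000587). Pcna fell from 64.0 and 56.0 to 40.3 and 47.4 CPM (-0.36, SE 0.10, adjusted p = 0.0448). Cdc20, an activator of the anaphase-promoting complex, rose from 5.8 and 4.2 to 7.3 and 9.4 CPM (0.85, SE 0.24, adjusted p = 0.0418). Of the 9 S and 14 G2/M members tested, no other passed.

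Beyond the 38 members, cell cycle genes from 4 further lists were followed, in counts of genes that passed the test. In basal cells 0 of 64 other S phase genes and 0 of 19 G1 cyclins, kinases and E2F genes were called. Of 22 inhibitors and quiescence genes tested, 4 were higher and 1 lower, and of 113 other G2/M genes 1 was higher and 1 lower, against 2.21% of all genes higher and 1.26% lower. Cdkn1a, which encodes the Cdk inhibitor p21, rose from 259 and 264 CPM to 333 and 428 CPM (log2 fold change 0.59, SE 0.11, edgeR adjusted p = 0.0164). Gadd45b, a stress-induced gene, rose from 24.4 and 24.5 CPM to 32.9 and 44.8 CPM (0.70, SE 0.15, adjusted p = 0.0288). Ccng1, a p53 target, rose from 57.0 and 53.1 CPM to 70.9 and 75.4 CPM (0.46, SE 0.10, adjusted p = 0.0316). These 3 did not overlap between genotypes. Named after their values were seen, Mdm2, the ligase that degrades p53 and is itself a p53 target, also rose (0.52, adjusted p = 0.0365), and Ccng2, a cyclin of resting cells, fell (-0.49, adjusted p = 0.0489).

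The 2 other G2/M genes called in basal cells moved in opposite directions. Psrc1, a microtubule-binding protein gene, rose from 15 and 15.4 CPM to 27.5 and 30.0 CPM (log2 fold change 0.96, SE 0.13, edgeR adjusted p = 0.00254). Prc1, which bundles microtubules of the central spindle, fell from 124 and 122 CPM to 91.0 and 80.5 CPM (-0.46, SE 0.09, adjusted p = 0.0242). In both genes the genotypes were separate.

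In transition cells 3 of 22 inhibitors and quiescence genes were called, all higher, and of 72 other G2/M genes 1 was higher and 5 lower, while 0 of 46 other S phase and 0 of 16 G1 genes were called, against 2.27% of all genes higher and 1.45% lower. Ccng1 rose from 58.0 and 47.7 CPM to 92.5 and 105 CPM (log2 fold change 0.95, SE 0.13, edgeR adjusted p = 0.000393), Cdkn1a from 476 and 510 CPM to 638 and 822 CPM (0.60, SE 0.10, adjusted p = 0.00171) and Mdm2 from 37.5 and 45.6 CPM to 61.4 and 81.1 CPM (0.78, SE 0.16, adjusted p = 0.00761). Psrc1 rose from 7.8 and 6.6 CPM to 26.0 and 23.6 CPM (1.85, SE 0.25, adjusted p = 0.000281). No control mouse reached a CerS4epi-/- mouse in these 4 genes. Hmgn2, a nucleosome-binding protein gene, fell from 186 and 212 CPM to 121 and 101 CPM (-0.79, SE 0.11, adjusted p = 0.000453), and Ttk, the checkpoint kinase Mps1, fell from 22.8 and 20.5 CPM to 7.7 and 8.4 CPM (-1.39, SE 0.26, adjusted p = 0.00373). The other 3 that fell, named after their values were seen, were Prc1 (-0.83), Racgap1 (-1.28) and Gas2l3 (-2.11), all genes of cytokinesis. With cells gated on keratin UMIs, Cdkn1a (0.68), Psrc1 (2.57) and Ccng1 (0.77) still passed. The dissociation list was higher in the same cells and mice, and its part in these differences was not tested.

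**Figure D5:**
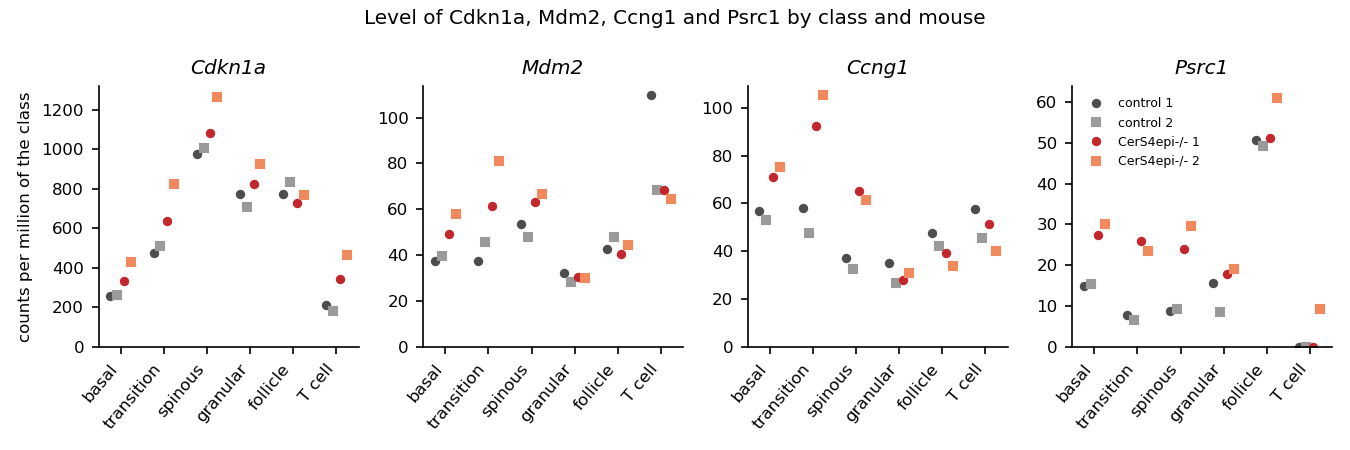
CPM of Cdkn1a, Mdm2, Ccng1 and Psrc1 by class and mouse, 1 panel per gene on axes that start at 0. In basal and transition cells both CerS4epi-/- mice lie above both controls, as for Psrc1 at 26.0 and 23.6 CPM against 7.8 and 6.6 CPM in transition cells, while in the follicle they do not for Cdkn1a, at 728 and 769 CPM against 772 and 833 CPM.

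In the follicle these genes were not called. Cdkn1a had 772, 833, 728 and 769 CPM (log2 fold change -0.00, SE 0.10, edgeR adjusted p = 0.994), and Mdm2 (0.01), Ccng1 (-0.20) and Psrc1 (0.26) did not pass either. Tested against basal cells, the difference in log2 fold change was -0.58 for Cdkn1a (adjusted p = 0.00542), -0.65 for Ccng1 (0.0224) and -0.71 for Psrc1 (0.0184). The called inhibitor gene of the follicle was Gadd45a, another stress-induced gene, with 12.6, 6.3, 18.6 and 24.1 CPM (1.22, SE 0.28, adjusted p = 0.0167), 1 of 22 tested. Of 16 G1 genes, Ccnd3, cyclin D3, fell from 95.7 and 93.2 CPM to 66.1 and 62.3 CPM (-0.46, SE 0.11, adjusted p = 0.0171). In these 2 genes too no mouse crossed into the other genotype.

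Of 66 other G2/M genes in the follicle, 8 were lower and 2 higher, and of 45 other S phase genes 1 was higher, against 7.96% of all genes higher and 5.32% lower. Hmgn2 fell from 75.9 and 87.6 CPM to 48.6 and 44.3 CPM (log2 fold change -0.72, SE 0.12, edgeR adjusted p = 0.00315), and Stmn1, a microtubule-destabilizing protein gene, fell from 149 and 162 CPM to 108 and 98.0 CPM (-0.49, SE 0.10, adjusted p = 0.011). Tuba1c, an alpha tubulin, rose from 119 and 119 CPM to 163 and 181 CPM (0.63, SE 0.11, adjusted p = 0.00313), and Dnmt1, the maintenance DNA methyltransferase, rose from 25.2 and 28.0 CPM to 33.5 and 37.2 CPM (0.51, SE 0.15, adjusted p = 0.0458). The other gene that rose, named after its values were seen, was Lmnb1, lamin B1 (0.78, adjusted p = 0.048). The follicle class itself shifted. It made up 10.1% and 7.33% of each control library and 19.3% and 21.4% of each CerS4epi-/- library. Its upper follicle markers summed to 33531 and 27564 CPM in control and 42899 and 50644 CPM in CerS4epi-/- mice. Its spinous markers were lower, at 26225 and 31366 against 23509 and 21804 CPM, and its inner bulge markers overlapped. The part of these shifts in the follicle differences was not tested. In T cells 0 of 6 other S phase, 0 of 24 other G2/M, 0 of 8 G1 and 0 of 14 inhibitor genes were called. Cdkn1a there had 209, 183, 341 and 464 CPM (1.04, SE 0.24, adjusted p = 0.225).

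Over all cells of a mouse together, 9 of 23 G2/M members and 1 of 15 S members were called, all lower, among 16034 genes tested of which 6.07% were lower and 8.20% higher. Named after their values were seen, they included Cenpf (log2 fold change -0.48), Anln (-0.43) and, of the S members, Rrm2 (-0.55). The class named basal was a smaller part of all cells in CerS4epi-/- mice (23.6%, 22.7%) than in controls (31.2%, 31.4%). The unnamed Sostdc1 cluster, which scored highest for the basal markers, was a larger part (13.3%, 14.5% against 7.59%, 5.45%). Whether basal cells were fewer or were placed in that cluster was not tested. In sums over all cells, fewer cells of a class and less RNA per cell cannot be told apart.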

How the data were processed

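Estimated counts per gene and barcode were deposited for each of the 4 mice. Per the study's methods, the authors trimmed reads with fastp 0.23.2, extracted barcodes and UMIs with custom scripts, and mapped to GRCm39 (Gencode vM29, protein-coding and lncRNA genes) with STAR 2.7.10a, counting exonic and intronic reads and dividing reads of several genes by expectation maximization. Counts are therefore not all whole, and genes with near-identical copies are uncertain. The tools named in the submitters' notes also include Scanpy 1.9.1 and Seurat. From these files, barcodes of 1200 counts or more with a mitochondrial share of 20% or less were used. Counts were scaled with scran 1.30.0 and clustered with scanpy 1.11.5 (a re-implementation of Harmony, Leiden resolution 0.8) without the cell cycle genes, and clusters were named from marker lists. Scrublet marked 1 cell, which was removed, so doublets were taken as still present. For phase calls each cell was rounded and thinned to 1200 UMIs, and 68 cells that fell short after rounding were left out.

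Counts were summed per mouse and class, rounded, and tested with edgeR 4.0.16 (R 4.3.3) using TMM scaling, its default filter on low counts and the quasi-likelihood test with Benjamini-Hochberg adjustment. Printed CPM are counts per 1000000 counts of the class, and fold changes are those of the fit. The study split pooled cells into pseudoreplicates for its own tests. Here the mouse was the replicate, so p-values rest on the spread between 2 mice per genotype. Classes were compared by an interaction with the mouse as a block. Shares were compared by two-sided exact permutation tests over mice. The scripts were tested on simulated data. DESeq2 1.42.0 and the alternatives given in the closing section were also run. Columns of other samples left out numbered 0. The members and gene lists were chosen with earlier results of these data known. Values per mouse are given for all members past the threshold in a class (the 8 of smallest p where more passed), for the 3 S and 3 G2/M members of highest CPM and of each list the largest log2 fold change in each class, and for the 3 genes of smallest p past the threshold of each further list, and genes named beyond this are said to be. A replicate number in the labels names a mouse only.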

Additional observations from a re-analysis of the deposited data

Results flagged for a closer look

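The 14 genes given here are members or genes named above, and are not all the genes called. Their genotype difference differed between 2 cell classes by an interaction test (edgeR, Benjamini-Hochberg adjusted p from 0.000752 to 0.0362). Between transition and basal cells, 0.16% of 11856 genes were called higher and 0.278% lower. Between follicle and basal cells it was 3.42% and 2.84% of 13082 genes, so calls were common there. Between transition and basal cells, the differences of log2 fold changes (CerS4epi-/- over control) were -1.9 for Cenpf, -1.02 for Ube2c, -1.2 for Ccna2, -1.11 for Cenpa, -1.03 for Anln, -0.8 for Top2a, -1.47 for Ccnb1 and, outside the members, -0.47 for Hmgn2. In all 8 the fold change was the lower one in transition cells. Between follicle and basal cells they were 1.7 for Nusap1, 1.25 for Gadd45a, 0.58 for Tuba1c, -0.71 for Psrc1, -0.65 for Ccng1 and -0.58 for Cdkn1a. Gadd45a and Tuba1c passed in the follicle fit alone and were higher in CerS4epi-/- mice, Nusap1 did not pass in either class, and Psrc1, Ccng1 and Cdkn1a rose in basal cells and did not pass in the follicle. Transition and basal cells of 1 mouse share a library, and their separation rests on the clustering. The make-up of the follicle class differed between genotypes, and its part in these differences was not tested.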

How the results depend on the processing

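The number of genes called was 431 in basal, 387 in transition, 1534 in follicle and 2 in T cells. It was 785, 604 and 18 in basal, transition and T cells with no filter on low counts, and 256, 110 and 784 in basal, transition and follicle cells with DESeq2. It was 267 in basal and 1 in T cells at 10% mitochondrial counts, 1 in T cells without Harmony and 31 in T cells without the 5% highest Scrublet scores. Of the G2/M members, the count of 0 in basal cells was 10 with the Sostdc1 cluster added (1095 genes). The count of 11 in transition cells was 2 with DESeq2, 0 with cell cycle genes not held out, 6 at 2000 counts and 0 with cells gated on keratin UMIs (132 genes). In the follicle 1 G2/M member passed with no filter and 1 S member at 2000 counts. The log2 ratio of shares turned sign for the S share of basal cells (0.043) at 2 UMIs (-0.001), another thinning seed (-0.096), 2000 counts (-0.066) and with the Sostdc1 cluster (-0.101). It turned for the S share of transition cells (-0.751) without thinning (0.13), with another seed (0.872) and at 2000 counts (0.299), and for their G2/M share (-1.184) with scanpy phase scores (0.032) and the keratin gate (0.098). In the follicle it turned for S (0.823) with another seed (-0.437) and for G2/M (0.326) at 2 UMIs (-0.454), without thinning (-0.009), with another seed (-0.443) and at 2000 counts (-0.03). In T cells it turned for S (0.659) without Pcna (-0.267) and for G2/M (1.483) at 2000 counts (-1.127). The cause was not tested. With cell cycle genes not held out, Ube2c (0.53), Cdk1 (0.26), Top2a (0.46) and Birc5 (0.40) were higher in transition cells. In that clustering a cluster led by Top2a and Ube2c was set apart from them and named basal. In the main transition class Uhrf1 ran from -1.77 without CerS4epi-/- mouse 1 to 0.014 without CerS4epi-/- mouse 2. Of 510 alternative values of named genes, 425 kept direction and side of the threshold, 71 lost and 9 gained the call, and 5 turned.

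Leaving out each mouse in turn gave 302 to 999 genes in basal, 369 to 593 in transition, 928 to 1456 in follicle and 0 to 27 in T cells. G2/M members called numbered 0 to 6, 7 to 12, 0 to 1 and 0, and S members 0 to 2, 0 to 2, 0 and 0. The log2 ratio of S shares ran from -0.201 to 0.336, -1.25 to -0.381, 0.039 to 2.667 and 0.447 to 0.907, and that of G2/M shares from -0.438 to -0.042, -1.251 to -1.12, 0.046 to 0.674 and 0.483 to 1.885, in the same order of classes.

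Same-numbered mice deviated together (r = 0.257 over 8573 genes, basal sums), with 2 pairs only and no label that ties them. With the replicate block, genes called numbered 917, 816 and 47 in basal, transition and T cells, and G2/M members 1 in basal, 13 in transition and 1 in follicle cells. A class of transition cells was not found at 10% mitochondrial counts or without the 5% highest Scrublet scores, and T cells at 2000 counts were too few for a fit, so these were not run. The Sostdc1 cluster, the keratin gate and the share without Pcna were added after the data were seen. Of the 38 members, 7 passed the filter on low counts in T cells, where 66 to 146 cells per mouse were kept, so most members gave no test there.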

Other observations

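Ttk, the checkpoint kinase gene that fell in transition cells, had an order of levels unlike that of the G2/M members. Within the interfollicular epidermis it was highest in spinous cells, at 70.0, 74.5, 46.2 and 43.8 CPM (control 1, control 2, CerS4epi-/- 1 and CerS4epi-/- 2), then in granular cells at 35.6, 34.9, 17.2 and 13.4 CPM, against 19.05, 18.2, 15.8 and 14.0 CPM in basal cells. Spinous and granular cells did not overlap, and granular and basal cells did. Ttk was lower in CerS4epi-/- mice in spinous cells (log2 fold change -0.70, SE 0.08, edgeR adjusted p = 0.00217) and granular cells (-1.08, SE 0.14, adjusted p = 0.000874). These 2 fits and this gene were picked after the values were seen.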
